A study of Mus musculus with 2 samples.

Results

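Mmp12-gate macrophages are the mononuclear phagocytes of these tumors that passed a gate on macrophage elastase (Mmp12, ENSMUSG00000049723) together with 1 further gene. Of 28002 cells kept in both libraries, 1104 were members. A cell was kept when it had at least 500 detected genes and at most 20% of its unique molecular identifiers (UMIs, counted molecules) from mitochondrial genes. A kept cell was a member when both gate genes together made up at least 0.05% of its UMIs and Tyrobp and Fcer1g, the signaling adaptors of myeloid receptors, at least 0.1%. The neutrophil genes S100a8 and S100a9 had to stay under 1% of UMIs, the resident macrophage genes Folr2 and Lyve1 at no more than 1 UMI, and the cycling genes Mki67, Top2a and Birc5 at no more than 2 UMIs. The untreated library gave 633 members and the MSA-2 library 471. An Mmp12 UMI was found in 197 and 80 of them, so most members passed the gate without Mmp12.

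The study grew MC38, a mouse colon carcinoma line, under the skin of C57BL/6 mice and treated the tumors with MSA-2, an agonist of the cytosolic DNA response protein STING. Tumors were injected 3 times at 3-day intervals and collected on day 7, and the tumors of 3 mice were pooled into 1 library for each condition. The sample label of the control group reads untreated, while the series text names an injected vehicle of saline with 10% DMSO and the methods call it saline-treated, so the control mice are called untreated here as in the label. The labels give the cell type as tumor cells, while the methods describe the sorted cells as immune cells, and both libraries held the same 14386 and 14617 barcodes that the methods count as cells. The untreated library held 198135335 UMIs with 14039 barcodes past the cell filter, and the MSA-2 library held 204387165 UMIs with 13963 barcodes kept. Members had a median depth of 5502 UMIs untreated and 4300 after MSA-2, and they summed to 3669250 and 2192573 UMIs. There were 53 barcodes that occurred in both libraries, among them 1 untreated and 2 MSA-2 members. Levels are given as CPM, counts of a gene scaled to the same total of UMIs in every class, and changes as a log2 ratio with MSA-2 in the numerator. With 1 library per condition there was no test between conditions. Ranges in parentheses are exact 95% intervals, and they cover counting error only.

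Macrophages of tumors arise from monocytes and from resident cells, and they clear debris, remodel matrix and signal to T cells. Mmp12 is a secreted metalloproteinase of macrophages that cleaves elastin and other matrix proteins. STING relays the detection of cytosolic DNA through the kinase TBK1 to the transcription factor IRF3 and to NF-κB, which switch on type I interferons, chemokines and inflammatory cytokines.

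Whether the name macrophage holds was checked against marker lists. All 10 macrophage markers were detected in members of both libraries. They summed to 31807 CPM without and 18916 CPM with MSA-2, with Apoe, a lipid transport protein, the gene with the most UMIs. Epithelial markers, which a carcinoma cell is expected to carry, gave 14 UMIs in untreated members, of which 13 were Epcam, and 1 UMI in MSA-2 members. They cannot tell members from carcinoma cells here, since deep Ptprc-free cells gave only 8 and 22 UMIs and no kept cell of either library reached 0.05% of Krt8 and Krt18 with the phagocyte adaptors under 0.02%. Deep Ptprc-free cells, used below as background, have at least 10000 UMIs, the adaptors under 0.02%, collagen genes under 0.05% and no UMI of the leukocyte gene Ptprc or of Pecam1. They are not free of immune RNA, since B and plasma cell markers reached 419 CPM in the untreated library. T cell and natural killer markers fell from 51.0 to 9.12 CPM, with Cd3e, Trac and Ncr1 at 0 in MSA-2 members. The class was not uniform in lineage genes. The complement genes C1qa, C1qb and C1qc, which mark mature macrophages, reached 0.1% of UMIs in 534 untreated members (84.4%) and 320 MSA-2 members (67.9%). Ly6c2, a surface protein of inflammatory monocytes, reached 0.05% in 92 (14.5%) and 145 (30.8%). The members are thus macrophages by most markers, with a part that carried a monocyte gene, and that part was larger in MSA-2 tumors.

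Membership is a range on a gate and not a separate type, since levels ran through the threshold without a gap. The lowest untreated member had 0.0501% of its UMIs from the gate genes, and the highest phagocyte left out had 0.0498%. In the MSA-2 library both values rounded to 0.05%. Between the gate and 0.06% lay 80 untreated and 46 MSA-2 members, and 98 and 59 cells lay between 0.04% and the gate. The median member had 0.110% in untreated and 0.123% in MSA-2 tumors, or 6 and 5 UMIs. Many members rested on few molecules, with 1 or 2 UMIs of the gate genes in 59 untreated and 89 MSA-2 members. The highest cell of each library carried 102 and 142 UMIs of the gate genes.

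The next question was how the abundance of the members differed between the conditions. The answer turned on the cells they were counted against, and the make-up of the libraries differed in more than 1 class. The untreated library had 20 cells over the neutrophil limit, and the MSA-2 library 2666. Mononuclear phagocytes, defined below, numbered 5057 and 2301. Of all kept cells, 4.51% (4.17% to 4.87%) were members without treatment and 3.37% (3.08% to 3.69%) with MSA-2, for a log2 ratio of -0.42 (-0.59 to -0.24). Of mononuclear phagocytes, meaning cells past the Tyrobp and Fcer1g gate and under the S100a8 and S100a9 limit, the share was 12.5% (11.6% to 13.5%) of 5057 cells and 20.5% (18.8% to 22.2%) of 2301, a log2 ratio of 0.71 (0.53 to 0.88). Members thus became a smaller part of the tumor suspension and a larger part of its phagocytes. When every cell with a UMI of S100a8 or S100a9 was left out, a setting added after the data had been seen, the share of kept cells came to 4.56% in untreated and 8.94% in MSA-2 tumors, with only 90 members and 1007 kept cells left in the latter.

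The closest class was the C1q macrophages, phagocytes with C1q genes at 0.1% or more and below the gate of the members under otherwise equal limits. There were 2942 of them untreated and 739 after MSA-2, while members went from 633 to 471. Members had no C1q limit, and 534 untreated and 320 MSA-2 members reached 0.1%, so the classes were not limited alike. Counted over both classes, the share of members was 17.7% (16.5% to 19.0%) untreated and 38.9% (36.2% to 41.7%) under MSA-2, for a log2 ratio of 1.14 (0.96 to 1.31). The plot of shares sets these denominators side by side. Depth can move a gate on few UMIs, and thinning every cell to 2000 UMIs before the gate gave a log2 ratio of 0.68 among phagocytes.

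**Figure D1:**
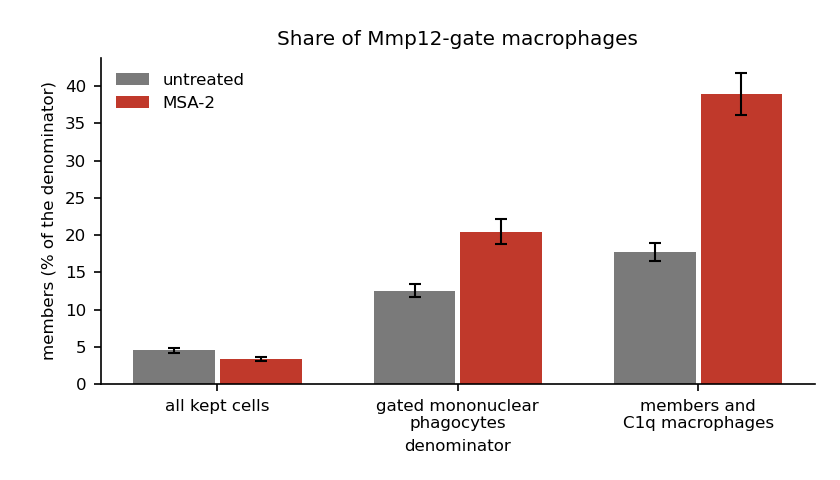
Share of Mmp12-gate macrophages (y axis, percent of the denominator) in the untreated and MSA-2 libraries for 3 denominators on the x axis, with exact 95% Clopper-Pearson intervals that cover counting error only. The share of all kept cells was 4.51% and 3.37%, that of gated phagocytes 12.5% and 20.5%, and that of members with C1q macrophages 17.7% and 38.9%.

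The genes of the rule are described first. They chose the cells, so their levels in members follow from the rule and are not read as a response. Mmp12 stood at 360.3 CPM (341 to 380.2) without and 215 CPM (196 to 235) with MSA-2. Of all Mmp12 UMIs of a library, members held 66.9% of 1975 in untreated and 56.3% of 836 in MSA-2 tumors. Tyrobp stood at 1399.7 and 1183 CPM and Fcer1g at 3813 and 3107 CPM. Lyve1 had no UMI in members of either library, and Folr2, a folate receptor, had 36 and 57 UMIs.

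Levels of Mmp12 in the other classes are given as background, and their order follows in part from the rule. C1q macrophages lie below the gate by definition and gave 6.57 and 8.18 CPM. Ly6c2 monocytes, phagocytes also below the gate with Ly6c2 at 0.05% or more and C1q genes under 0.1%, gave 2.23 and 3.23 CPM. Folr2 Lyve1 macrophages, which have at least 2 UMIs of these genes and C1q genes at 0.1% or more, are not limited by the gate and gave 22.5 CPM untreated and 32.0 CPM under MSA-2. Of their 60 and 167 cells, 13 (21.7%) and 59 (35.3%) were past it. T cells gave 1.45 and 6.71 CPM, and deep Ptprc-free cells 1.29 and 0.388 CPM. Neutrophils gave 5.74 CPM in MSA-2 tumors, while the 20 untreated neutrophils had no Mmp12 UMI and too few counts to place them. The plot of levels by class shows Mmp12 beside 5 other genes.

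**Figure D2:**
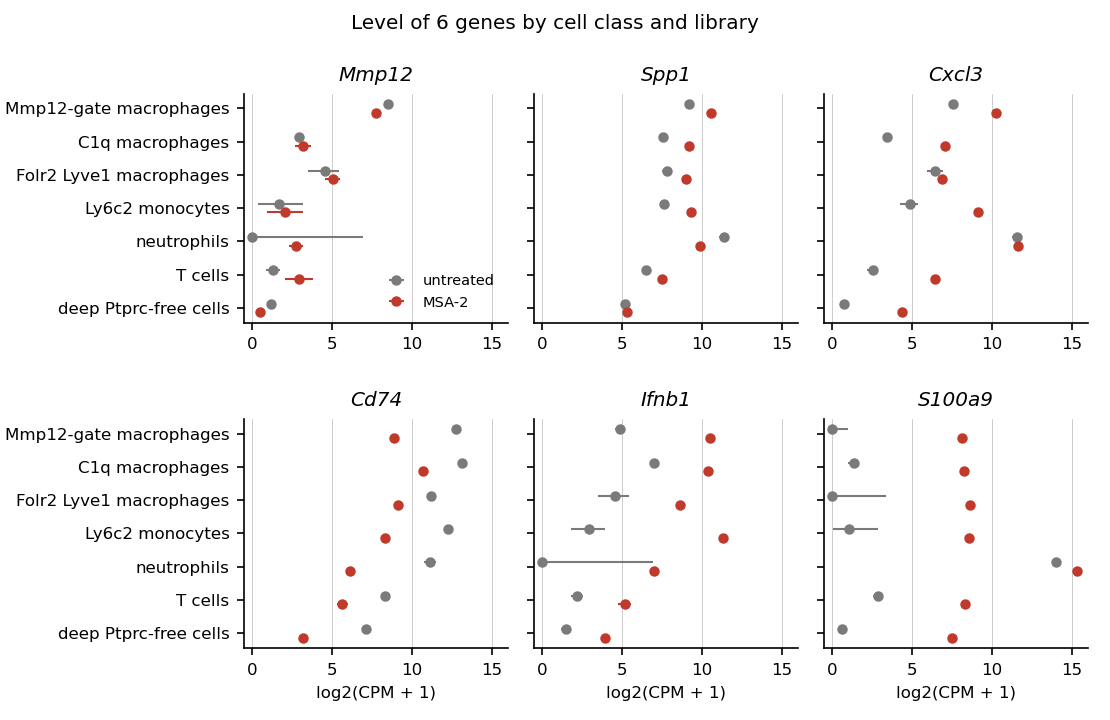
Levels of 6 genes (x axis, log2 of CPM plus 1) in 7 cell classes (y axis) of the untreated and MSA-2 libraries, with exact 95% Poisson intervals. Mmp12 is higher in members (360.3 and 215 CPM) than in C1q macrophages (6.57 and 8.18 CPM) because it helped choose them, while S100a9 reaches 318 CPM even in T cells of the MSA-2 library.

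Genes whose levels ran most like those of Mmp12 were sought over 12 points, 6 classes in both libraries, among 5447 genes, as a description that shares its cells with the rule. Ranks among the low classes rest on few molecules, with 2 and 4 Mmp12 UMIs in Ly6c2 monocytes and 0 in untreated neutrophils. The rank correlation was highest for the fatty acid receptor Cd36 (0.916), followed by Acsl4, which joins fatty acids to coenzyme A (0.874), and Srxn1, which repairs oxidized peroxiredoxins (0.867).

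What else set members apart from C1q macrophages was asked within each library. The cells were chosen by their own genes, so the values are a description. Only C1q macrophages had to reach the C1q limit, and how far the differences below follow from that was not tested. Of 2802 genes with at least 50 CPM in either class and 50 UMIs, 36 (1.28%) were higher in members by more than 2-fold in both libraries and 6 (0.214%) lower. Cxcl3 (ENSMUSG00000029379), a ligand of the neutrophil receptor Cxcr2, stood at 189 against 9.92 CPM in untreated and 1215 against 133 CPM in MSA-2 tumors, members first. Il7r, the receptor chain for interleukin-7, stood at 117 against 20.5 CPM and 172 against 46.9 CPM. Chil3, a chitinase-like lectin of alternatively activated and monocyte-derived cells, stood at 63.0 against 17.5 CPM and 351 against 94.8 CPM, but Ly6c2 monocytes had more, 529 and 1441 CPM. Nos2, which makes nitric oxide, stood at 40.1 against 7.57 CPM and 162 against 77.8 CPM.

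Single genes of lipid handling were among those higher in members, although the lipid-associated list used below was close in both classes, with 26564 CPM in members and 26402 CPM in C1q macrophages of untreated tumors and 17507 and 19774 CPM after MSA-2. Cd36 was higher in members by a log2 ratio of 2.04 in untreated and 1.83 in MSA-2 tumors. Hilpda, which blocks lipid breakdown under low oxygen, had log2 ratios of 2.31 and 1.36, and Bnip3, a hypoxia-induced mitophagy receptor, 1.41 and 1.69. Both are classical targets of hypoxia-inducible factors. Spp1, the secreted phosphoprotein osteopontin, stood at 588 against 187 CPM in untreated and 1496 against 594 CPM in MSA-2 tumors. The adhesion protein gene Thbs1 stood at 837 against 266 CPM and 889 against 357 CPM. A pair of clotting factor genes was also higher, with log2 ratios of 2.90 and 1.69 for F10 and of 2.64 and 1.61 for F13a1, the transglutaminase that crosslinks fibrin. Folr2 Lyve1 macrophages had more F13a1 than members, with 949 and 735 CPM against 152 and 617 CPM. Slc7a11, which imports cystine for glutathione, had 1.71 and 1.48. The genes lower in members by more than 2-fold in both libraries were Tmem176b (-1.42 and -2.50), Tmem176a (-1.31 and -2.57), the chaperone Hspa1a, the prostaglandin D synthase Hpgds, the transcription factor Mef2c and the mitochondrial carrier Slc25a25. Tmem176a and Tmem176b encode related cation channels of phagocytes and dendritic cells, and their gap was wider in MSA-2 tumors.

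Members were also ordered by the share of UMIs from the gate genes and divided into 3 equal bins of 211 untreated and 157 MSA-2 cells. The question was whether other genes changed along the range of the gate. In untreated tumors the hypoxia and glycolysis list, 19 genes of sugar breakdown and low-oxygen response, summed to 9080.3, 10237 and 14929 CPM from the lowest to the highest bin. Spp1 stood at 339.7, 573 and 865 CPM and Cxcl3 at 49.8, 96.3 and 428 CPM. Pf4, a platelet-type chemokine chosen after its values were seen, stood at 336, 603 and 1229.5 CPM. These 4 readouts climbed with the gate genes in untreated tumors. MHC class II genes ran the other way (19679.7, 17725 and 13365 CPM), as did interferon-stimulated genes (9031, 8479 and 6527 CPM) and Ifnb1 (55.3, 19.9 and 6.67 CPM). The intervals of Ifnb1 overlapped for the middle and highest bins. In MSA-2 tumors the hypoxia list (9680.4, 10279 and 12628 CPM), Spp1 (1222, 1327 and 1920.0 CPM) and Pf4 (905, 1333 and 2348 CPM) kept that order. MHC class II genes (1098, 1019.6 and 794 CPM) again ran the other way. So did interferon-stimulated genes (32958, 30435 and 30075 CPM), with overlapping intervals for the middle and highest bins. For Spp1 and MHC class II genes in MSA-2 tumors, the intervals of the lowest and middle bins overlapped. Cxcl3 (1030.2, 929 and 1672 CPM) and Ifnb1 (1392, 1497 and 1416 CPM) did not keep their order.

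How MSA-2 members differed from untreated members in all other genes was the main comparison. The 8090 genes tested had 50 UMIs or more when both libraries were added, and of them 582 (7.19%) were higher by more than 2-fold with 1 CPM added to both values and 449 (5.55%) were lower. The median log2 ratio of all genes tested was -0.18, so values are read relative to it, and scaling by trimmed means moved it to -0.086. That scaling gave 663 genes higher (8.20%) and 338 lower (4.18%). The balance of the counts turned under 2 other settings. Members free of S100a8 and S100a9 gave 521 genes higher (7.44% of 7003) and 1024 lower (14.6%). A log2 threshold of 0.58 gave 1072 higher (13.3%) and 1611 lower (19.9%). Genes were followed in lists by role, and the plot of gene lists orders them. Interferon-stimulated genes, cytokines and chemokines stood at the top of that order and MHC class II genes at its bottom, while glycolysis and iron genes lay near the middle.

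**Figure D3:**
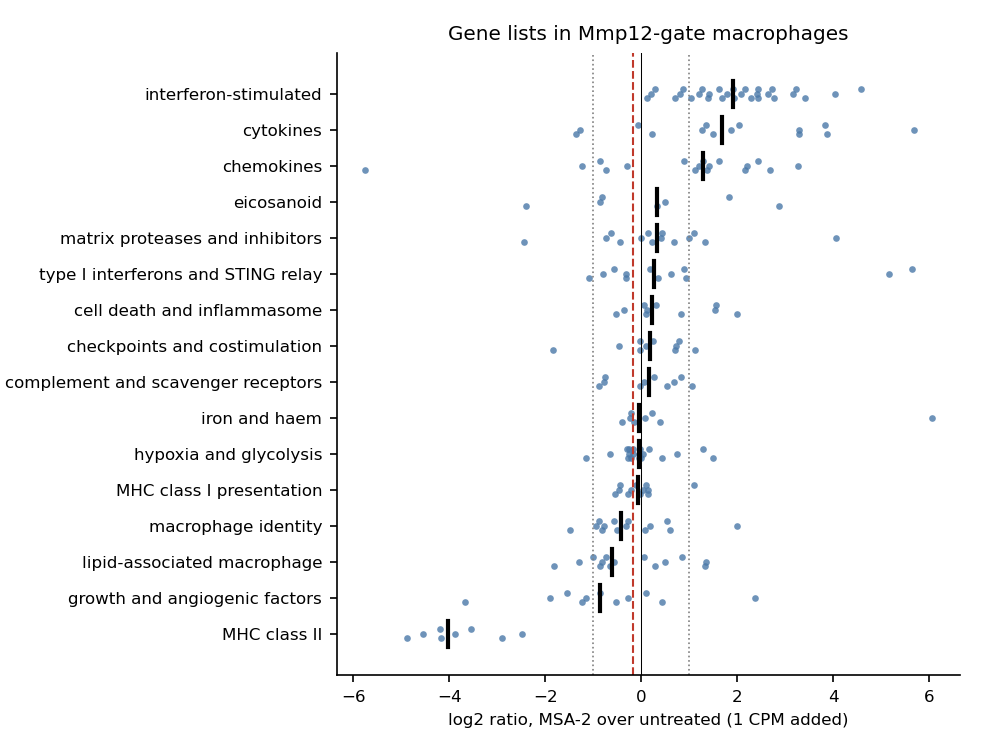
Log2 ratio of MSA-2 over untreated with 1 CPM added (x axis) of each tested gene of the lists (y axis) in Mmp12-gate macrophages, with black bars for list medians, a red dashed line for the median of all 8090 genes (-0.18) and dotted lines at 2-fold. The interferon-stimulated median is 1.91 and the MHC class II median -4.04.

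MHC class II molecules present peptides to CD4 T cells, and they need the invariant chain Cd74 for assembly and H2-DM for peptide exchange. All 8 genes of the list were lower by more than 2-fold, with a median log2 ratio of -4.04, or -3.77 with Ciita at its bound. Their sum went from 16975 to 968 CPM. H2-Eb1, a beta chain, went from 3500.2 to 117 CPM (log2 ratio -4.90, -5.08 to -4.72). H2-Aa, the alpha chain of I-A, went from 2822 to 120.4 CPM (log2 ratio -4.55, -4.73 to -4.37), and its partner H2-Ab1 from 2999.8 to 163 CPM (log2 ratio -4.20, -4.36 to -4.05). The invariant chain Cd74 went from 6981 to 469 CPM (log2 ratio -3.89, -3.99 to -3.80), a smaller fall than that of H2-Eb1. Of the peptide exchange genes, H2-DMa and H2-DMb1 were reduced less than the chains, with H2-DMa from 316 to 55.6 CPM (log2 ratio -2.51, -2.79 to -2.23) and H2-DMb1 from 322 to 41.96 CPM (log2 ratio -2.94, -3.26 to -2.63). H2-DMb2 went from 59 UMIs to 1 (log2 ratio -5.14, -10.47 to -2.61). Ciita, the transactivator that switches these genes on, went from 63 UMIs to 0, which is at least 12.5-fold lower against a floor of 3 counts in the library.

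The fall was seen per cell as well as in the sum. The median member took 1.06% of its UMIs from H2-Aa, H2-Ab1, H2-Eb1 and Cd74 in untreated tumors and 0% in MSA-2 tumors. At least 1 UMI of these 4 genes was found in 98.9% of untreated and 45.2% of MSA-2 members. Free RNA of other cells adds to such shares, and T cells, which do not make class II molecules in mice, had 85.4% and 30.8% at median depths of 3612 and 5306 UMIs. With each cell drawn down at random to 2000 UMIs, without 36 untreated and 56 MSA-2 members and 158 and 16 T cells of lower depth, these shares were 95.5% and 36.4% in members and 68.2% and 12.9% in T cells. What remained was uneven. The tenth of members with the most of these UMIs held 35.03% of them in untreated and 76.3% in MSA-2 tumors.

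The same list was lower in neighbouring classes. Its median was -2.49 in C1q macrophages and -3.999 over the 6 genes tested in Ly6c2 monocytes. Cd74 went from 8906 to 1645 CPM in C1q macrophages, from 4843 to 312 CPM in Ly6c2 monocytes and from 2334 to 551 CPM in Folr2 Lyve1 macrophages. Members were below C1q macrophages in Cd74 in both libraries. Class I presentation, which displays peptides from inside the cell to CD8 T cells, was not reduced alike. Its 12 genes had a median of -0.063, which turned to 0.036 when scaled by trimmed means, with 1 gene higher by more than 2-fold and none lower. That gene was Nlrc5, the transactivator of class I genes, which went from 41.4 to 89.8 CPM (log2 ratio 1.12, 0.80 to 1.43). The heavy chain gene H2-K1 went from 2453 to 2421 CPM and the light chain gene B2m from 2246 to 2461 CPM.

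Interferon genes and the relay from STING to them were the next list. Type I interferons are the secreted output of this pathway, and the receptor Ifnar1 and Ifnar2 passes their signal through Jak1 and Tyk2. Ifnb1 (ENSMUSG00000048806) went from 27.8 to 1435 CPM in members (log2 ratio 5.69, 5.41 to 5.99), among the steepest rises of all genes. Ifna2 went from 2 to 119 UMIs (log2 ratio 6.64, 4.75 to 9.70). Ifna4 had no UMI in untreated and 46 in MSA-2 members, at least 25.7-fold higher, and Ifna5 none and 16, at least 8.93-fold higher, and both fell short of the count filter. Ifnb1 and Ifna2 thus rose, while most relay genes stayed within 2-fold. Tmem173, which encodes STING, went from 44.7 to 20.5 CPM (log2 ratio -1.12, -1.63 to -0.64), a fall past 2-fold that came within it under several alternatives, such as -0.85 without members that carried genes of other cell types. Cgas, the DNA sensor upstream of STING, went from 9.81 to 19.6 CPM (log2 ratio 0.999, 0.33 to 1.68), and the kinase Tbk1 from 86.9 to 161 CPM (log2 ratio 0.88, 0.66 to 1.11). Of the 12 tested genes of the list, 2 were higher by more than 2-fold and 1 lower, with a median of 0.27. The receptor chain Ifnar1 went from 114 to 65.7 CPM (log2 ratio -0.80, -1.08 to -0.53), short of 2-fold.

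Ifnb1 was found in far more cells after MSA-2. A UMI was present in 6.003% of untreated and 74.1% of MSA-2 members, against 2.09% and 17.9% of T cells. At 2000 UMIs per cell the shares were 2.51% and 67.2% in members and 0.678% and 7.14% in T cells. Members exceeded the background of T cells in MSA-2 tumors on both counts. By level, members were close to C1q macrophages after MSA-2 (1435 and 1307 CPM) and below Ly6c2 monocytes (2529.8 CPM). They differed more before it, at 27.8 CPM in members and 124 CPM in C1q macrophages of untreated tumors.

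Interferon-stimulated genes are the targets of the receptor and block viral replication, sense nucleic acids or amplify the signal. Of 30 genes, all tested, 24 were higher by more than 2-fold and none lower, with a median log2 ratio of 1.91 and a sum that went from 8032 to 31132 CPM. Ifit1, which binds RNA with foreign caps, went from 120.2 to 1972 CPM (log2 ratio 4.04, 3.89 to 4.18). Rsad2, or viperin, which makes a chain-terminating nucleotide, went from 552 to 4966 CPM (log2 ratio 3.17, 3.0998 to 3.24). Gbp5, a GTPase that coats pathogens and promotes inflammasome assembly, went from 20.2 to 506 CPM (log2 ratio 4.65, 4.31 to 5.01). All 3 act against viruses or bacteria inside the cell. Isg15, a ubiquitin-like modifier, went from 404 to 2182 CPM (log2 ratio 2.43, 2.35 to 2.52), and Usp18, the protease that removes it and dampens the receptor, from 43.6 to 216 CPM (log2 ratio 2.31, 2.05 to 2.57). The RNA sensor gene Ifih1 went from 279.6 to 1896 CPM (log2 ratio 2.76, 2.66 to 2.86). Among regulators, Irf7, which drives interferon alpha genes, went from 262 to 606 CPM (log2 ratio 1.21, 1.09 to 1.33). The least moved of those named here were Gbp2 (0.11), which turned negative when members with S100a8 or S100a9 UMIs were left out, and Bst2 (0.28).

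Shares of cells with a UMI rose for these genes too, but also in T cells. Isg15 was found in 60.8% of untreated and 94.5% of MSA-2 members and in 54.3% and 92.9% of T cells, which respond to interferon themselves. At 2000 UMIs the values were 40.03% and 89.9% in members and 36.02% and 76.4% in T cells. For Rsad2 they were 53.2% and 97.9% in members and 33.3% and 89.1% in T cells, and at 2000 UMIs 36.5% and 97.1% in members and 17.1% and 71.4% in T cells.

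Because these genes moved together, their promoters were searched for GAAA, any 2 bases and GAAA, the core of the interferon-stimulated response element, on both strands from 250 bases before to 50 after the start. The letters were present in 1079 of the 27025 genes of the RefSeq promoter table (3.99%) and in 294 of 6490 tested genes with an entry (4.53%). They were present in 15 of 25 matched genes of the interferon-stimulated list (60%). That list was chosen as targets of interferon, so this share follows in part from the choice. Of genes higher by more than 2-fold, 69 of 454 held them (15.2%), and of genes lower by more than 2-fold, 15 of 348 (4.31%). The higher genes include genes of that list, so both shares are not separate. None of the 5 matched MHC class II genes and 1 of 12 matched chemokine genes held them. Lists that did not rise as a whole held them too, with 2 of 7 growth and angiogenic factors (28.6%), 2 of 10 macrophage identity genes (20%) and 2 of 10 class I presentation genes (20%), all small counts. Windows of up to 90 bases around the match are shown for 6 interferon-stimulated genes with steep rises and for Saa3, an acute-phase gene among the steepest, 5′ to 3′ on the strand of the gene. Capitals mark this motif or its reverse complement, TTTC, any 2 bases and TTTC, and overlapping matches run together. Build and positions are those of GRCm38.p6: Ifit1 chr19:34640764-34640853 (plus strand), Ifit3 chr19:34583367-34583456 (plus), Rsad2 chr12:26456523-26456612 (minus), Isg15 chr4:156200835-156200924 (minus), Cxcl10 chr5:92349053-92349139 (minus), Gbp5 chr3:142496729-142496818 (plus) and Saa3 chr7:46715752-46715841 (minus).
Ifit1: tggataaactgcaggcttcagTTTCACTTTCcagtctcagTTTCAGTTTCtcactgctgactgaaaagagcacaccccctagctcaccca
Ifit3: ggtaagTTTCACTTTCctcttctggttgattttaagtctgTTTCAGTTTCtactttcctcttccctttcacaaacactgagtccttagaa
Rsad2: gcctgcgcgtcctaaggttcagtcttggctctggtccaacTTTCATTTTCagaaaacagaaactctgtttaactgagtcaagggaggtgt
Isg15: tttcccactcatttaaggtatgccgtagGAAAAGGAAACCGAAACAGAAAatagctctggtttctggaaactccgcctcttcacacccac
Cxcl10: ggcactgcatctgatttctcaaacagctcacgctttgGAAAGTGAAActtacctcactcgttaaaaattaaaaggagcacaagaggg
Gbp5: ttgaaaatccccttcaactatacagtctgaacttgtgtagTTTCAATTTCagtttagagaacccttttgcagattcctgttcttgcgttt
Saa3: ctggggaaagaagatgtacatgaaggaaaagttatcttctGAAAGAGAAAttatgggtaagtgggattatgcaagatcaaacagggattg

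Ifit1 and Ifit3 thus hold the letters at separate places, Isg15 holds overlapping copies, and Saa3 holds 1 copy. A match is a description of the letters and was not tested as a binding site.

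Chemokines draw other leukocytes into tissue, and many of them were found in members. Of 17 tested genes, 11 were higher by more than 2-fold and 2 lower, with a median log2 ratio of 1.29, which was the same with Ccl17 at its bound. Their sum went from 16247 to 58074 CPM, with Ccl4 the gene with the most UMIs. Ccl5, which attracts T cells and monocytes, went from 888 to 8561 CPM (log2 ratio 3.27, 3.22 to 3.32). Ccl4 and Ccl3, which are made by activated macrophages and attract leukocytes, went from 3287 to 17810.1 CPM (log2 ratio 2.44, 2.41 to 2.47) and from 672 to 3099 CPM (log2 ratio 2.20, 2.14 to 2.27). In T cells, which make Ccl4 and Ccl5 themselves, Ccl4 stood at 894 and 5241 CPM and Ccl5 at 1235 and 3545 CPM. Cxcl10, which recruits T cells through Cxcr3, went from 1127 to 5046 CPM (log2 ratio 2.16, 2.11 to 2.21). T cells gave 1531 and 4472 CPM of it and deep Ptprc-free cells 1735 and 3385 CPM, and how much of the level in members is free RNA was not tested. Cxcl9, a ligand of that receptor driven by interferon gamma, was lower, from 332 to 197 CPM (log2 ratio -0.75, -0.91 to -0.59). The monocyte attractants Ccl2 and Ccl7, ligands of Ccr2, went from 865 to 2637 CPM and from 1072 to 2775 CPM.

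Neutrophil attractants were also on the list, and their bearing on the number of neutrophils was not tested. Cxcl3 went from 189 to 1215 CPM in members (log2 ratio 2.69, 2.57 to 2.81). Cxcl2 went from 5056 to 12350.3 CPM (log2 ratio 1.29, 1.26 to 1.32) and Cxcl1 from 578 to 1077 CPM (log2 ratio 0.90, 0.81 to 0.98), the last short of 2-fold. The smallest rises over the alternatives were 0.995 for Cxcl2, within 2-fold, and 0.56 for Cxcl1. In the MSA-2 library, neutrophils carried Cxcl3 at 3219 CPM and T cells at 86.5 CPM. How much of the count in members is free RNA was not tested. Ccl17, a ligand of the receptor Ccr4 of regulatory and type 2 T cells, went from 53.1 CPM to 0, at least 38.8-fold lower. Ccl22, which binds the same receptor, went from 23 to 6 UMIs, too few to be tested. Ccl24, an attractant of eosinophils, went from 21.8 to 8.67 CPM (log2 ratio -1.33, -2.14 to -0.60), but its fall shrank to -0.11, with 1 CPM added, when C1q genes were required. Ccl4 UMIs were found in 83.4% of untreated and 99.4% of MSA-2 members and, at 2000 UMIs, in 67.5% and 99.04%, against 79.8% and 91.7% of T cells, or 63.1% and 90.7% at 2000 UMIs.

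Cytokines regulate other immune cells, and the list of members split by direction. Of 14 tested genes, 10 were higher by more than 2-fold and 2 lower, with a median of 1.68. Their sum, in which Il1b weighs heavily, moved far less, from 4089 to 4496 CPM. Il6, which drives the acute-phase response, went from 4.36 to 275 CPM (log2 ratio 5.98, 5.27 to 6.80). Tnf, a driver of inflammation and cell death, went from 133 to 1297 CPM (log2 ratio 3.29, 3.15 to 3.43). Il27, a subunit of the cytokine that restrains T cell inflammation, went from 6.54 to 109 CPM (log2 ratio 4.05, 3.44 to 4.72), and Il23a, which sustains interleukin-17 responses, from 8 to 66 UMIs (log2 ratio 3.79, 2.73 to 5.06). Csf3, the growth factor of neutrophils, went from 6 to 80 UMIs (log2 ratio 4.48, 3.29 to 5.97), or 36.5 CPM, beside 32.8 CPM in T cells, 14.98 CPM in deep Ptprc-free cells and 134 CPM in neutrophils of that library, and how much of it is free RNA was not tested. The interleukin-1 antagonist gene Il1rn went from 192 to 489.8 CPM (log2 ratio 1.35, 1.21 to 1.49) and Il10, which restrains macrophages, from 40.1 to 166 CPM (log2 ratio 2.05, 1.77 to 2.34). The falls were in Il1b and Tgfb1. Il1b, an NF-κB-driven fever cytokine, went from 3143 to 1294 CPM (log2 ratio -1.28, -1.34 to -1.22), while its relative Il1a rose from 139 to 393 CPM (log2 ratio 1.5001, 1.34 to 1.66). Tgfb1, which suppresses T cells and drives matrix deposition, went from 153 to 58.8 CPM (log2 ratio -1.38, -1.66 to -1.10). Il12b had 2 UMIs in untreated and 0 in MSA-2 members.

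Il6 was found in 2.21% of untreated and 43.5% of MSA-2 members, against 1.72% and 12.2% of T cells. At 2000 UMIs the shares were 0.503% and 33.0% in members and 0.424% and 7.14% in T cells. Its level in MSA-2 members (275 CPM) lay between those of C1q macrophages (157 CPM) and Ly6c2 monocytes (456 CPM).

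Matrix proteases cleave the tumor scaffold, and their inhibitors hold them in check. Of 14 tested genes, which count Mmp12 although it chose cells, 4 were higher by more than 2-fold and 1 lower, with a median of 0.32. The 4 were Mmp8, Timp1, Mmp13 and Ctsl, and the 1 was Timp3. Mmp8, a collagenase of neutrophil granules that is also on the neutrophil marker list, went from 4.09 to 83.5 CPM (log2 ratio 4.35, 3.59 to 5.22), and Mmp13, a collagenase of stroma and macrophages, from 41.4 to 90.3 CPM (log2 ratio 1.12, 0.81 to 1.44). The inhibitor gene Timp1 went from 44.4 to 113 CPM (log2 ratio 1.34, 1.05 to 1.64), while Timp2 went from 331 to 212 CPM (log2 ratio -0.65, -0.80 to -0.49). Ctsl, a lysosomal cysteine protease, went from 805 to 1612 CPM (log2 ratio 1.001, 0.93 to 1.07), just past 2-fold. Proteases were thus among the rises, and inhibitors were found in both directions.

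Lipid-associated genes mark macrophages that clear debris and store fat. Of 14 genes, 2 were higher by more than 2-fold and 3 lower, with a median of -0.61. Spp1, which binds integrins and CD44, went from 588 to 1496 CPM (log2 ratio 1.35, 1.27 to 1.43), and Fabp4, a fatty acid carrier, from 35.2 to 89.4 CPM (log2 ratio 1.35, 1.02 to 1.68). These were the 2 rises. The falls were in Pparg, the lipid-sensing transcription factor, from 45 to 6 UMIs (log2 ratio -2.16, -3.68 to -0.93), in Lpl, which frees fatty acids from lipoproteins, from 63 to 14 UMIs (log2 ratio -1.43, -2.38 to -0.58), and in the tetraspanin Cd9, from 293 to 144 CPM (log2 ratio -1.02, -1.21 to -0.84). Trem2, the lipid receptor that signals through Tyrobp, went from 679 to 382 CPM (log2 ratio -0.83, -0.95 to -0.72), and Apoe from 18888 to 10442 CPM (log2 ratio -0.85, -0.88 to -0.83), both short of 2-fold. Spp1 thus parted from Trem2 and Apoe, with which it is often grouped in tumor macrophages.

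The hypoxia and glycolysis list as a whole barely moved. Its 19 genes had a median of -0.053, which turned to 0.046 when scaled by trimmed means, with 2 genes higher by more than 2-fold and 1 lower. Its sum went from 11371 to 10886 CPM, above the 6396 and 6400.3 CPM of C1q macrophages. Gapdh, a glycolytic enzyme, went from 3358 to 3236 CPM, and Pkm, which makes pyruvate, from 1412 to 1369.6 CPM. The exceptions were Hilpda, from 433 to 1062 CPM (log2 ratio 1.29, 1.20 to 1.39), the vasodilator peptide gene Adm, from 7.90 to 24.2 CPM (log2 ratio 1.61, 0.93 to 2.32), and Vegfa, which fell. Vegfa, the main growth factor of vessels, went from 447 to 202 CPM (log2 ratio -1.15, -1.30 to -0.996). Its fall was -0.72, within 2-fold, when only members free of S100a8 and S100a9 were counted.

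Growth and angiogenic factors act on vessels, fibroblasts and epithelium. Of 11 tested genes, 1 was higher by more than 2-fold and 5 lower, with a median of -0.87. Pdgfb, which recruits pericytes, went from 236 to 9 UMIs (log2 ratio -3.97, -5.12 to -3.02), and Pdgfa, which acts on fibroblasts, from 74.7 to 19.2 CPM (log2 ratio -1.96, -2.47 to -1.49). Fn1, a matrix glycoprotein, went from 479.7 to 203 CPM (log2 ratio -1.24, -1.39 to -1.09), and Igf1, a growth factor of many tissues, from 66 to 12 UMIs (log2 ratio -1.72, -2.74 to -0.82). The smallest fall of Igf1 over the alternatives was -0.86, within 2-fold. Vegfa was the fifth of these genes. The rise was in Areg, a ligand of the epidermal growth factor receptor, which went from 46.9 to 247 CPM (log2 ratio 2.40, 2.15 to 2.65). Thbs1, which binds and restrains vessel growth signals, went from 837 to 889 CPM, and its small difference changed sign under other gates, to -0.092 at 0.1%.

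Of 14 genes of macrophage identity, 1 was higher by more than 2-fold and 1 lower, with a median of -0.42 beside -0.18 for all genes tested. Csf1r, the receptor for the growth factor that macrophages need, went from 260.3 to 146 CPM (log2 ratio -0.83, -1.02 to -0.65), and Lyz2, the lysozyme of phagocytes, from 5883 to 3047 CPM (log2 ratio -0.95, -0.99 to -0.91). Cx3cr1, a chemokine receptor of monocytes and macrophages, went from 138 to 48.8 CPM (log2 ratio -1.502, -1.82 to -1.20). Mertk, which binds dying cells for uptake, rose from 64.3 to 259 CPM (log2 ratio 2.01, 1.79 to 2.24). Complement and scavenger receptors had a median of 0.15 over 10 tested genes, which turned to -0.18 without cells that carried S100a8 or S100a9. C1qa, a chain of the complement initiator, went from 4486 to 2611 CPM (log2 ratio -0.78, -0.82 to -0.74). The 1 gene past 2-fold was Cfb, a factor of the alternative complement pathway, from 101 to 213 CPM (log2 ratio 1.07, 0.87 to 1.27).

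Ligands that restrain or support T cells were mixed. Of 10 tested checkpoint and costimulation genes, 1 was higher by more than 2-fold and 1 lower, with a median of 0.17, or -0.0094 without cells at the Ly6c2 gate. Cd274, which encodes PD-L1, went from 369.6 to 802 CPM (log2 ratio 1.12, 1.01 to 1.22). Pdcd1lg2, which encodes the related PD-L2, went from 100 to 15 UMIs (log2 ratio -1.99, -2.88 to -1.20). The ligands of PD-1 thus moved in opposite directions. The costimulator Cd86 went from 411 to 676 CPM (log2 ratio 0.72, 0.61 to 0.82), short of 2-fold. Ido1, the tryptophan-degrading enzyme that the study targets beside STING, had 1 UMI in the members of each library.

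The remaining lists were small. Iron and haem genes had a median of -0.049 over 8 tested genes, which turned to 0.046 when scaled by trimmed means, with 1 gene past 2-fold. That gene was Lcn2, which binds bacterial iron carriers, with 1 UMI in untreated and 183 in MSA-2 members (log2 ratio 8.26, 5.76 to 13.57), or 83.5 CPM, beside 175 CPM in T cells, 43.1 CPM in deep Ptprc-free cells and 2602 CPM in neutrophils of that library, so its rise cannot be told apart from free RNA. The ferritin chain gene Fth1 went from 33598 to 29983 CPM. Of 7 tested eicosanoid genes, 2 were higher by more than 2-fold and 1 lower, with a median of 0.32, which turned to -0.25 without cells that carried S100a8 or S100a9. Ptges, which makes prostaglandin E2, went from 15.3 to 118 CPM (log2 ratio 2.95, 2.53 to 3.39), and Ptgs1, the constitutive cyclooxygenase, from 69 to 6 UMIs (log2 ratio -2.78, -4.28 to -1.59). Of 10 cell death and inflammasome genes, 3 were higher by more than 2-fold and none lower, with a median of 0.22. They were the necroptosis genes Mlkl, from 18.5 to 77.1 CPM (log2 ratio 2.06, 1.64 to 2.48), and Ripk3, from 15.8 to 47.9 CPM (log2 ratio 1.60, 1.12 to 2.09), and the death receptor gene Fas, from 10.6 to 33.3 CPM (log2 ratio 1.65, 1.07 to 2.25).

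Beyond the lists, the 15 steepest rises and falls of members held genes with several roles. Saa3, an acute-phase apolipoprotein made by macrophages, went from 5.996 to 1599 CPM (log2 ratio 8.06, 7.46 to 8.74). Slpi, a secreted inhibitor of neutrophil elastase, went from 97.3 to 2194 CPM (log2 ratio 4.49, 4.34 to 4.65), and Slfn4, an interferon-responsive gene of myeloid cells, from 39.2 to 752 CPM (log2 ratio 4.26, 4.01 to 4.52). T cells of the MSA-2 library gave 1449.5 CPM of Saa3, 209.6 CPM of Slpi and 53.0 CPM of Slfn4. Slpi and Slfn4 were higher than in members in neutrophils (7155 and 3302 CPM) and Ly6c2 monocytes (4948 and 1635 CPM) of that library. For Saa3, Folr2 Lyve1 macrophages (5062 CPM) and Ly6c2 monocytes (2752 CPM) of that library were well above members. C1q macrophages gave 1015 CPM of it, neutrophils 600.2 CPM and deep Ptprc-free cells 118 CPM. The Saa3 level in members was close to that in T cells, and how much of it is free RNA was not tested. Mgl2, a lectin of alternatively activated macrophages and dendritic cells, went from 226 to 4 UMIs (log2 ratio -5.08, -6.97 to -3.70). Dcstamp, which is needed for fusion of macrophages into giant cells, went from 217 to 2 UMIs (log2 ratio -6.02, -9.07 to -4.15). Gatm, which starts creatine synthesis, went from 287 to 52.4 CPM (log2 ratio -2.45, -2.74 to -2.17), and Fosb, an immediate early factor, from 865 to 185 CPM (log2 ratio -2.22, -2.38 to -2.07). Chil3, which was higher in members than in C1q macrophages, rose from 63.0 to 351 CPM (log2 ratio 2.48, 2.27 to 2.70).

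How far this response was shared with C1q macrophages is shown by each class's own values. In C1q macrophages, 589 of 11157 genes (5.28%) were higher by more than 2-fold and 508 (4.55%) lower, and in Ly6c2 monocytes 543 of 5166 (10.5%) and 670 (13%). Interferon-stimulated genes had a median of 1.91 in members, 1.42 in C1q macrophages and 1.96 in Ly6c2 monocytes. Chemokines had 1.29, 0.82 and 2.71, and cytokines 1.68, 1.62 and 2.46. The members thus lay between both classes for chemokines, and no difference between the classes was tested. Single genes show where members and C1q macrophages stood apart. Tnf had log2 ratios of 3.29 in members and 1.79 in C1q macrophages, which began higher, at 319 CPM. Ccl3 had 2.20 and 0.63, with C1q macrophages again higher at the start, at 1873 CPM. Nos2 had 2.02 and 3.36, with members higher in both libraries.

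**Figure D4:**
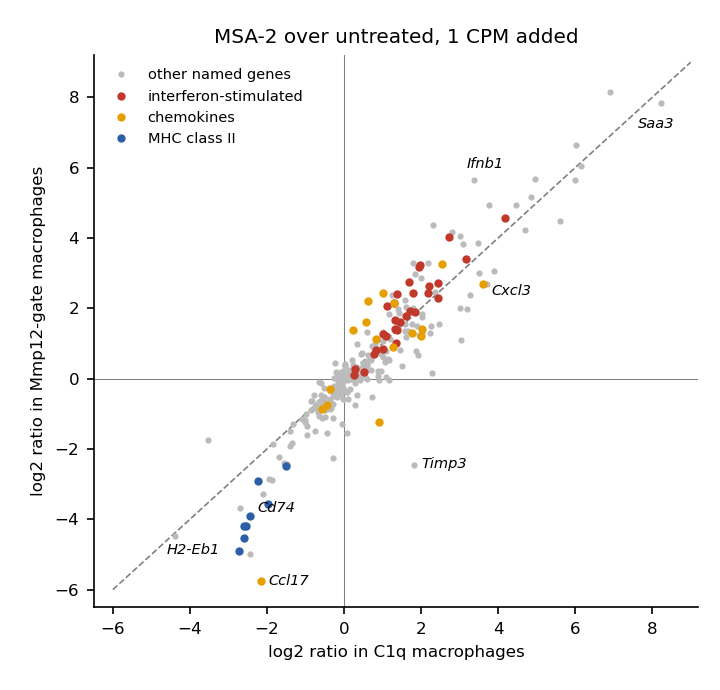
Log2 ratio of MSA-2 over untreated with 1 CPM added for the named genes in Mmp12-gate macrophages (y axis) and in C1q macrophages (x axis), with colors for 3 lists and a dashed line of equal ratios. MHC class II genes lie below the line (medians -4.04 and -2.49), and most interferon-stimulated genes lie above it (medians 1.91 and 1.42).

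Genes of other cell types moved in the members, and their whole lists are given beside the results. Of the 6 tested neutrophil markers, 4 were higher by more than 2-fold and none lower. The list of 8 summed to 113 CPM in untreated members, with Retnlg, Cxcr2 and Ly6g at 0 and Il1r2 the gene with the most UMIs, and to 378 CPM in MSA-2 members, with G0s2 the gene with the most. T cells gave 30.6 and 169 CPM. S100a9, a calcium-binding protein of neutrophils, had no UMI in untreated members and 623 in MSA-2 members, a gene that the rule limits, and 381 of the 471 MSA-2 members carried S100a8 or S100a9, against 5 of 633. At 284 CPM, S100a9 was below its level in T cells (318 CPM) and far below neutrophils (41136 CPM). Per 100 S100a9 UMIs, MSA-2 members had 17.3 UMIs of the neutrophil gene Retnlg, C1q macrophages 22.2, T cells 15.96, deep Ptprc-free cells 20.4 and neutrophils 18.9. The ratio was close in all of these classes, so S100a9 and Retnlg in members cannot be told apart from free neutrophil RNA.

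Of the 8 genes of the Ly6c2 monocyte list, 7 were higher by more than 2-fold and 1 lower, with a median of 2.20. The sum went from 1149 to 3804 CPM in members, with the interferon-inducible Plac8 the gene with the most UMIs, and from 598 to 1478 CPM in T cells. Vcan, a matrix proteoglycan of monocytes, went from 38.7 to 314 CPM (log2 ratio 3.02, 2.76 to 3.29), beside 133 and 160.4 CPM in T cells, and F13a1 from 152 to 617 CPM (log2 ratio 2.03, 1.88 to 2.17). Ly6c2 itself went from 210.1 to 479 CPM (log2 ratio 1.19, 1.05 to 1.33), while Ccr2, the receptor that brings monocytes into tissue, fell from 116 to 53.4 CPM (log2 ratio -1.12, -1.43 to -0.82). MSA-2 members thus carried more of most monocyte genes and less of Ccr2. Whether new arrivals or a change within cells gave these values was not tested.

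Fibroblast markers went from 387 to 639 CPM in members, with 1 of 4 tested genes past 2-fold. Dcn, a matrix proteoglycan, went from 55.9 to 269.5 CPM (log2 ratio 2.27, 2.04 to 2.51) and had the most UMIs in MSA-2 members, while Col3a1 had the most in untreated members. T cells gave 1133 and 2781 CPM of the list, above the members in both libraries. Fap, a fibroblast protease gene outside the list and chosen after its values were seen, went from 17.7 to 272 CPM in members, beside 34.3 CPM in T cells and 165 CPM in neutrophils of the MSA-2 library. Collagen genes passed 0.05% of UMIs in 86 of 633 untreated and 136 of 471 MSA-2 members. Of 4 tested resident macrophage markers, 1 was higher by more than 2-fold, and the sum went from 335 to 370.3 CPM, with the mannose receptor Mrc1 the gene with the most UMIs and with Timd4 at 0 in untreated members. Conventional dendritic cell markers went from 52.9 to 34.7 CPM, with Cd209a and Flt3 at 0 in MSA-2 members, and markers of mature regulatory dendritic cells from 37.9 to 32.4 CPM. Endothelial markers went from 45.8 to 16.9 CPM, with both tested genes, Pecam1 and Flt1, lower by more than 2-fold. B and plasma cell markers gave 49 and 18 UMIs with Cd79a at 0 in both libraries, mast cell markers 16 and 4, and red cell markers 0 and 1. The part of these cells in the results above was not tested beyond the settings that left out members with genes of other cell types.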

How the data were processed

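The values used are counts, the UMIs of each gene and barcode as the authors provide them for 1 untreated and 1 MSA-2 library, made from 10x Chromium 3′ (v3.1) libraries with Cell Ranger, version 7.0.0 by the submitters' processing notes, 7.0.1 per the file headers and 7.1.0 in the methods. The files hold 32285 features, and removal of doublets is not stated. The cell filter and the rule of the members are given at the opening. The members and the gene lists were chosen with earlier results of these data known. The class of tumor cells, defined by Krt8 and Krt18, held no cell, so deep Ptprc-free cells were added after the data had been seen. Doublets were kept. Scrublet in scanpy 1.11.5, with an expected rate of 0.8% per 1000 barcodes, called 734 untreated and 684 MSA-2 cells (5.23% and 4.90%), among them 15 and 12 members, which an alternative left out.

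Each class was summed within a library. Calls and list medians used log2 ratios of CPM with 1 CPM added over genes with at least 50 UMIs, and a call needed more than 2-fold. The log2 ratios of single genes in the text carry no added CPM. Intervals are Poisson for sums, Clopper-Pearson for shares and conditional binomial for ratios. With 1 library per group no test was possible, and the depth of the members of each library limits precision to these intervals. Sums and intervals came from scipy 1.17.1, pandas 2.3.3 and numpy 2.4.6 under Python 3.11.15, figures from matplotlib 3.10.9, and trimmed-mean (TMM) factors with edgeR 4.0.16 in R 4.3.3. The functions were checked on simulated counts. Promoters are those of RefSeq on GRCm38.p6.

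Genes were named by a rule: the genes of the rule and of lists by role, in members the 15 highest and 15 lowest log2 ratios among genes that reach 50 CPM in a library, the 15 highest and 15 lowest between members and C1q macrophages by the smaller of both libraries' ratios, and the 5 most like Mmp12. Not every such gene is printed, and a second gene of the gate and what rests on its level are not reported here. Alternatives concerned the cell filter, doublets, the gate, C1q, genes of other cell types, thinning, scaling, weight per cell, added CPM, the count filter and the threshold. After the data had been seen, alternatives were added that left out cells with S100a8 or S100a9 UMIs, with Ly6c2 or with barcodes shared by both libraries.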

Additional observations from a re-analysis of the deposited data

Results flagged for a closer look

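In a pair of genes the members and the C1q macrophages moved in opposite directions between the conditions, each with an interval on its own side of 0. Timp3, an inhibitor of metalloproteinases bound to the matrix, went from 16.9 to 2.28 CPM in Mmp12-gate macrophages, a log2 ratio of -2.89 (-4.56 to -1.59), and from 2.64 to 11.8 CPM in C1q macrophages, a log2 ratio of 2.16 (1.504 to 2.81). Lyz1, a lysozyme gene chosen after its values were seen, went from 9.54 to 33.3 CPM in members, a log2 ratio of 1.80 (1.20 to 2.43), and from 11.3 to 3.94 CPM in C1q macrophages, a log2 ratio of -1.52 (-2.45 to -0.71). With 1 library per condition the difference between the classes was not tested, and the intervals cover counting error only.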

How the results depend on the processing

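The share of Mmp12-gate macrophages among kept cells (log2 ratio -0.42) kept its sign except when all cells with a UMI of S100a8 or S100a9 were left out, where it was 0.97, since that removed most kept cells of the MSA-2 library. It was -0.21 with a filter of 1000 genes and 10% mitochondrial UMIs, -0.24 with a gate of 0.1%, -0.73 with C1q genes required, -0.69 without members that carried genes of other cell types, -2.79 with only members free of S100a8 and S100a9 counted and -0.72 without members at the Ly6c2 gate. The share of Mmp12-gate macrophages among gated mononuclear phagocytes (0.71) was 0.89 with a gate of 0.1%, 0.40 with C1q genes required, 0.44 without other cell types' genes and 0.41 without Ly6c2. It turned to -1.67 with only members free of S100a8 and S100a9 counted, where the denominator was not limited alike, and was 0.61 with both limited. Genes past a 2-fold rise in Mmp12-gate macrophages (582, 7.19% of 8090) numbered 1072 (13.3%) at a log2 threshold of 0.58. The number of genes tested changed with the count filter. Without one, 1323 rose (7.57% of 17482), and with at least 200 UMIs 325 (7.93% of 4096), so these shares were close. Genes past a 2-fold fall in Mmp12-gate macrophages (449, 5.55% of 8090) numbered 1024 (14.6% of 7003) under both limits on S100a8 and S100a9. Those limits leave 90 MSA-2 members. The falls numbered 173 (2.14%) with 10 CPM added and 1611 (19.9%) at 0.58. Without a count filter they were 1030 (5.89% of 17482), and with at least 200 UMIs 178 (4.35% of 4096). For MHC class II the median log2 ratio was -3.27 with 10 CPM added. For chemokines (1.29) it was 1.16 with a gate of 0.1%, 1.26 with at least 3 UMIs of the gate genes, 1.16 with C1q genes required, 1.26 without other cell types' genes, 1.09 under both limits on S100a8 and S100a9, 1.10 without Ly6c2, 1.39 with TMM factors, 1.33 with equal weight per cell, 1.24 without a count filter and 1.37 with at least 200 UMIs. The eicosanoid median (0.32) turned to -0.25 under both limits on S100a8 and S100a9. Other medians that shifted were that of lipid-associated genes (-0.61), at -0.27 with a gate of 0.1% and -0.26 with at least 200 UMIs, and that of cytokines (1.68), at 1.19 with C1q genes required and 1.19 without Ly6c2. Under both limits on S100a8 and S100a9, iron and haem genes (-0.049) were at -0.34 and macrophage identity genes (-0.42) at -0.60. The cause of these shifts was not tested. The interferon-stimulated median ran from 1.61 to 2.03 and that of MHC class II from -4.30 to -3.27 over 15 alternatives. Of the values of list medians, 215 stayed within the interval of the reported value, 38 moved and 2 reversed, both of the eicosanoid list. Sign changes of medians whose reported interval spans both signs are not counted as reversed. Among these were class I presentation, hypoxia and glycolysis, complement and scavenger receptors, checkpoints and costimulation, and iron and haem. Of 1556 values of 120 genes, 1228 stayed, 328 moved and 34 had the other sign, in 12 genes that were all within 2-fold. Of 85 such genes past 2-fold, 11 came within it under some alternative, among them Ccl24, Cxcl2, Igf1, Il1a, Tmem173 and Vegfa. No paired analysis was possible because each group has 1 library and no label pairs them. Depth limits genes of low count, and members with 1 or 2 UMIs of the gate genes.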
